A study of Mus musculus with 8 samples.

Results

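The antioxidant and Nrf2 target genes described here are 10 genes picked by name, *Nfe2l2*, *Keap1*, *Nqo1*, *Gclc*, *Gclm*, *Txnrd1*, *Srxn1*, *Gpx3*, *Prdx1* and *Sod1*. All their probes on the array were taken, which gave 18 probes of the 25697 measured. They were measured in kidneys of 4 male mice homozygous for a point mutation in *Scube3*, which encodes a secreted signaling protein, and of 4 wild type males. All 8 mice were 29 wk old and of strain C3HeB/FeJ, and the mutation came from a chemical (ENU) mutagenesis screen, so the mutants represent 1 mutant line. Kidney RNA was hybridized to Illumina Mouse Ref8 v2.0 BeadChips, with 1 array per mouse. In whole tissue, fewer cells of a type and less RNA per cell cannot be told apart.

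Nrf2, the protein encoded by *Nfe2l2*, is a transcription factor that switches on protective genes. In unstressed cells the adaptor protein Keap1 binds Nrf2 and hands it to a ubiquitin ligase for degradation, and oxidants or electrophiles that modify Keap1 let Nrf2 build up. Nrf2 then enters the nucleus with a small Maf protein and binds antioxidant response elements near genes for glutathione synthesis, thioredoxin recycling and quinone reduction. The kidney, whose tubules are rich in mitochondria, is also the main source of plasma glutathione peroxidase, the product of *Gpx3*.

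None of the 10 genes passed the test between genotypes. Of the 18 probes, 16 were above background on enough arrays to be tested, at least 1 for each gene, and 0 of 16 were called at an adjusted p of 0.05 (limma, Benjamini-Hochberg over all probes tested). Over all 12914 probes tested, 16.8% were called, 7.86% higher and 8.92% lower in mutants. By the brightest probe of each gene, 0 of 10 were called, against 16.3% of the 9000 genes tested. Both counts include *Gpx3*, which could hardly pass, since quantile normalization tied its values to its rank among the brightest probes. At an unadjusted p of 0.05, 1 of the 16 probes passed (6.25%), against 34% of all probes. The genes were chosen with earlier results of these data known, so these shares are a description. SAM (Significance Analysis of Microarrays) with the thresholds of the study's methods, a fold change over 1.6 and a false discovery rate under 6%, called none of the 18 probes and 0.969% of all probes (0.296% higher and 0.673% lower in mutants). The false discovery rate alone was passed by 1 of the 18, a *Keap1* probe, and by 14.5% of all probes. Some dim probes had no spread after low values were raised to 16, and SAM could not test them. They include *Nfe2l2* ILMN_1214369 and *Nqo1* ILMN_2766386, but the SAM counts and shares are over all 18 and all 25697 probes.

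*Gpx3* was left out of the account of intervals, since quantile normalization fixed its value in all mutant mice. The 95% interval of the fold change lay within 1.6-fold either way for 15 of the other 15 probes, and within 1.25-fold for 12 of 15. The 3 exceptions to the narrower limit were the probes of *Gclc* and *Txnrd1* and the dimmer probe of *Prdx1*, all near the background. These counts depended on the setting. On the authors' values 13 of 15 lay within 1.6-fold, with intervals of 0.504- to 1.43-fold for *Gclc* and 0.941- to 1.81-fold for the dimmer *Prdx1* probe (ILMN_2989706). *Gclc* also passed 1.6-fold under a replicate block, and when mutant replicate 3, wild type replicate 3 or wild type replicate 4 was left out. The log2 fold change, mutant over wild type, was positive for 12 probes and negative for 4, and positive for 7 and negative for 9 after scaling each array to a common median in place of quantile normalization. Its median over the 10 genes was 0.02, beside 0.03 over all 9000 genes. The median size regardless of sign was 0.07 for the 10 genes and 0.14 for all genes. Unlike the interval counts, the counts of signs and these medians include *Gpx3*.

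**Figure D1:**
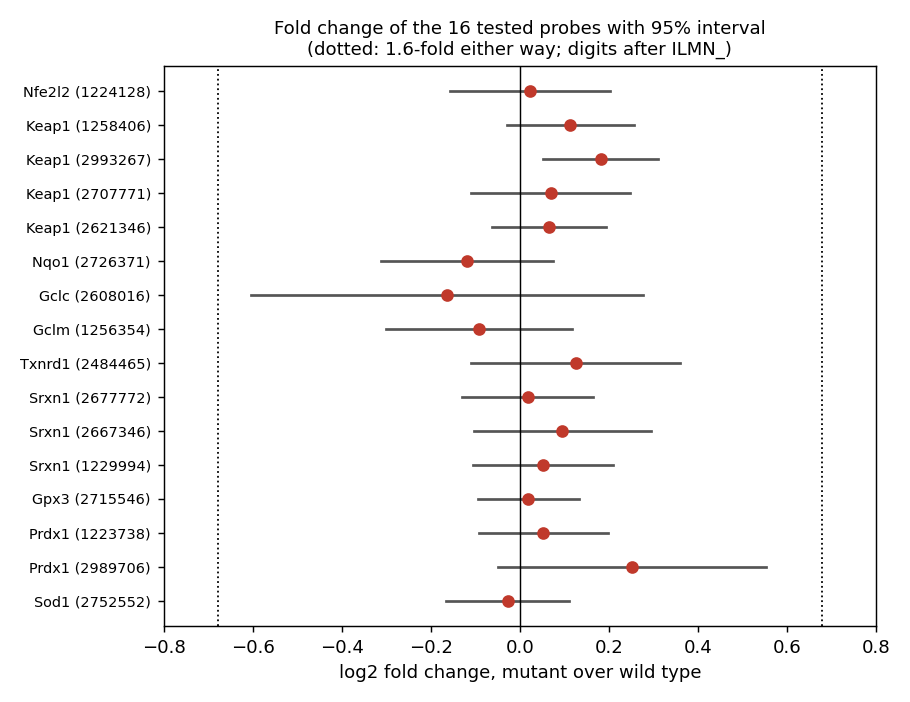
Log2 fold change, mutant over wild type (x axis), of the 16 probes tested (rows, by gene and probe number). Points are the fitted values and lines the 95% intervals over 4 mutant and 4 wild type mice. Dotted lines mark 1.6-fold either way. The intervals lie between them in this fit, and 15 of 16 cross 0, but that of *Gpx3* was narrowed by the normalization, and those of *Gclc* and the dimmer *Prdx1* probe pass the lines on the authors' values.

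The antioxidant response element has the core TGACNNNGC, in which N is any base. This core was searched on both strands of the promoters in RefSeq's GRCm38.p6 assembly, from 250 bases before to 50 bases after each annotated start. It occurred in 12.4% of 32851 promoters of that length, and in at least 1 promoter of 14% of 27025 genes. A promoter was listed for 9 of the 10 genes, all but *Gclc*, and 6 of the 9 (66.7%) held the core. In the lists of related pathway genes described further on, 16 of 86 genes with a promoter held it (18.6%). The 10 genes were picked by name as antioxidant and Nrf2 target genes, so their share is not a finding of these data. The matches are shown because they are the letters these 6 genes have in common. Each is printed along its gene's strand with the core in capitals, so that a core on the opposite strand reads GCNNNGTCA.

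*Nfe2l2*, chr2:75704879-75704913, minus strand, core starting 240 bases upstream of the start: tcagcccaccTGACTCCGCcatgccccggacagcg
*Gclm*, chr3:122245407-122245447, plus strand, 134 bases upstream: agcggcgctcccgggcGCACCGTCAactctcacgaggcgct
*Txnrd1*, chr10:82859098-82859138, plus strand, 92 bases upstream of the second of 3 listed starts, the other promoters having no match: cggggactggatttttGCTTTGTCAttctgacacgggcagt
*Srxn1*, chr2:152105536-152105573, plus strand, 28 bases downstream: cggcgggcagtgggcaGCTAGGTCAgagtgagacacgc
*Prdx1*, chr4:116685450-116685490, plus strand, 133 bases upstream: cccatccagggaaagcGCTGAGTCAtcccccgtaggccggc
*Sod1*, chr16:90220690-90220730, plus strand, 56 bases upstream: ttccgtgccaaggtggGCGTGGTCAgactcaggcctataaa

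The *Prdx1* match also holds TGANTCA, the AP-1 motif, which occurred in 7.81% of the promoters. The windows of *Keap1*, *Nqo1* and *Gpx3* did not hold these letters, which says nothing of elements farther away. The matches are descriptions of sequence, and binding of Nrf2 was not measured.

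Among the regulators, the transcript of Nrf2 itself differed little between genotypes. *Nfe2l2* (probe ILMN_1224128) had normalized log2 intensities of 6.30, 6.28, 6.32 and 6.33 in mutant mice, against 6.50, 6.15, 6.32 and 6.17 in wild type mice. The mutant mice lay close together, inside the range of the wild type mice. The log2 fold change was 0.02 (SE 0.08, limma adjusted p = 0.865), with an interval of 0.897- to 1.15-fold, and -0.05 after median scaling. The second probe, ILMN_1214369, was not well above background in any mouse.

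*Keap1*, the inhibitor, came closest to the threshold and had 4 probes. Probe ILMN_2993267 read 8.89, 9.02, 8.93 and 8.98 in mutant mice, against 8.84, 8.77, 8.75 and 8.74 in wild type mice. All mutant mice lay above all wild type mice on this probe, the only one of the 16 probes tested whose genotypes did not overlap. Genotypes did not overlap for 23.8% of all probes tested, with mutants above for 12.0%. By the brightest probe of each gene, 0 of the 10 genes had genotypes that did not overlap, against 24.5% of all genes. *Gpx3* counts as overlapping here by its tied values, although its genotypes were separate on the authors' values. The log2 fold change of *Keap1* ILMN_2993267 was 0.18 (SE 0.06, limma adjusted p = 0.0577), an interval of 1.04- to 1.24-fold. The adjusted p ran between 0.0185 and 0.363 over 16 other settings, in 4 of which the probe was called.

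The other *Keap1* probes gave smaller differences with overlapping genotypes. The brightest, ILMN_1258406, read 9.05, 9.10, 9.14 and 9.24 in mutant mice, against 8.96, 9.01, 8.98 and 9.10 in wild type mice. Its log2 fold change was 0.11 (SE 0.06, limma adjusted p = 0.239), and those of ILMN_2707771 and ILMN_2621346 were both 0.07 (adjusted p = 0.575 and 0.443 by limma). With scaling to a common median, these last 2 turned to -0.02. No probe differed from the brightest in its genotype difference beyond the spread between mice, with gaps of 0.07, -0.04 and -0.05 (two-sided exact permutation tests over 70 arrangements, p = 0.343, 0.686 and 0.543).

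*Nfe2l2* was also set against its inhibitor within each mouse. The log2 difference, *Nfe2l2* minus *Keap1*, averaged -2.82 ± 0.07 in mutant mice and -2.73 ± 0.21 in wild type mice (SD, n = 4 each). This difference of -0.09 was within the spread between mice (two-sided exact permutation test, p = 0.486, adjusted p = 0.771 over 2 gene pairs). In a description over all 8 mice, the genes whose pattern was most like that of *Nfe2l2*, of 8999 compared, were *Ywhaq* (Pearson's r 0.949, Spearman's rho 0.762), *Sys1* (0.945 and 0.929) and *Srd5a3* (0.940 and 0.976). None of these 3 was called between genotypes. They are the highest r of a search through 8999 genes on 8 mice, and whether they exceed chance was not tested.

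**Figure D2:**
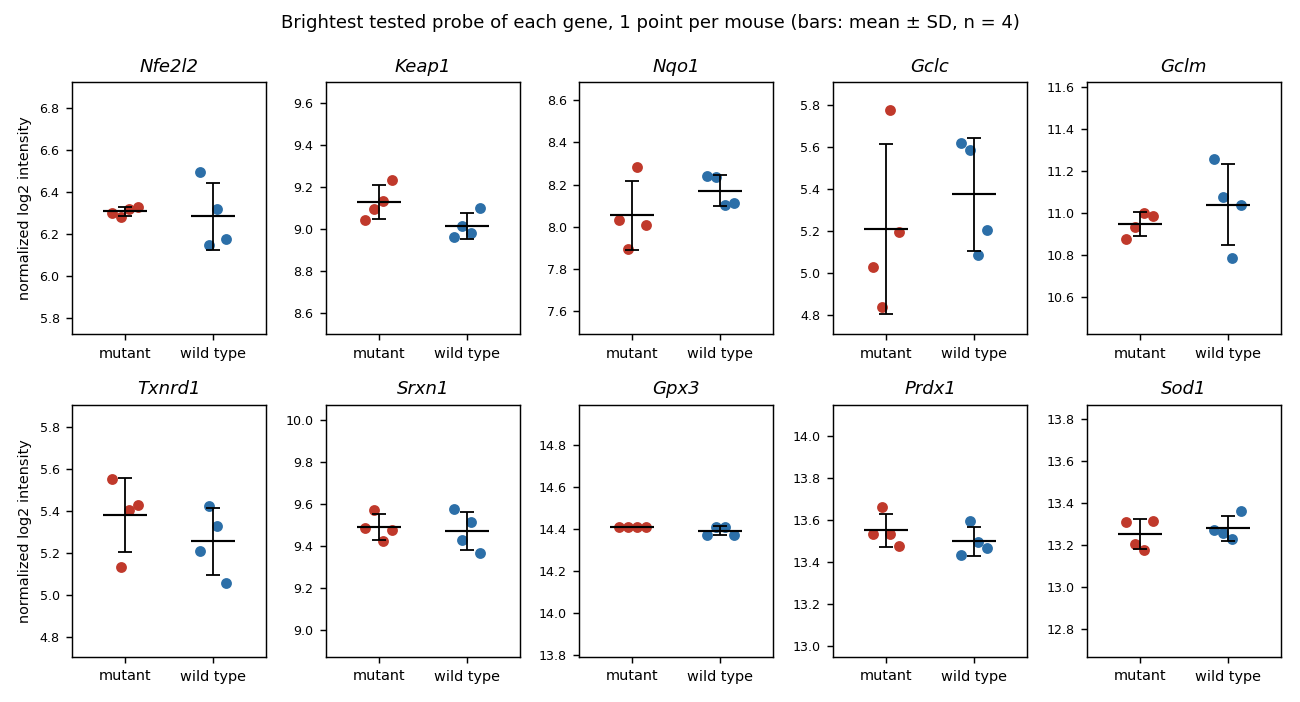
Normalized log2 intensity (y axis) of the brightest probe of each gene, with 1 point per mouse, mutant mice left and wild type mice right. Bars give the mean and SD over 4 mice, and every panel spans the same length of the log2 axis. The genotypes overlap in all 10 panels, and all 4 mutant values of *Gpx3* are tied.

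*Nqo1* encodes a quinone reductase and is among the most used readouts of Nrf2 activity. It read 8.03, 7.89, 8.28 and 8.01 in mutant mice, against 8.24, 8.23, 8.10 and 8.11 in wild type mice. Mutant replicates 1, 2 and 4 lay below all wild type mice, and mutant replicate 3 above all of them. The log2 fold change was -0.12 (SE 0.09, limma adjusted p = 0.363), an interval of 0.806- to 1.05-fold, on probe ILMN_2726371. Without mutant replicate 3 the interval was 0.781- to 0.978-fold, so its crossing of 0 on the log2 scale depended on that mouse. The probe was called in none of 16 other settings (lowest limma adjusted p = 0.105). The other probe, ILMN_2766386, was not well above background in any mouse.

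*Gclc* and *Gclm* encode the catalytic and modifier subunits of glutamate-cysteine ligase, which makes the first and rate-limiting step of glutathione synthesis. *Gclc* (ILMN_2608016) was dim, above background in 3 mutant and 4 wild type mice. It read 5.03, 4.84, 5.78 and 5.20 in mutant mice, against 5.62, 5.59, 5.08 and 5.20 in wild type mice. The mutant mice held both the highest and the lowest values. The interval was the widest of the 16 probes, 0.658- to 1.21-fold around a log2 fold change of -0.16 (SE 0.20, limma adjusted p = 0.590). Without mutant replicate 3 it was 0.622- to 0.987-fold. The probe was called in none of 15 other settings (lowest limma adjusted p = 0.141).

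*Gclm* (ILMN_1256354) gave 10.875, 10.934, 10.999 and 10.987 in mutant mice, against 11.257, 11.076, 10.787 and 11.040 in wild type mice. The mutant mice fell inside the range of the wild type mice. The log2 fold change was -0.09 (SE 0.09, limma adjusted p = 0.520). Without wild type replicate 3 the interval was 0.787- to 0.998-fold, and no setting called the probe (lowest limma adjusted p = 0.150). The log2 difference between the subunits, *Gclc* minus *Gclm*, averaged -5.74 ± 0.37 in mutant mice and -5.67 ± 0.14 in wild type mice (SD, n = 4 each), a gap within the spread (two-sided exact permutation test, p = 0.771).

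*Nqo1* and *Gclc*, the latter near background, varied together from mouse to mouse, and *Gclm* followed them less closely. Wild type replicate 1 was highest and replicate 3 lowest for all 3 genes, and mutant replicate 3 was highest for all 3. Over the 8 mice, Pearson's r was 0.946 for *Nqo1* with *Gclc* (rho 0.929), 0.648 for *Gclc* with *Gclm* and 0.528 for *Nqo1* with *Gclm*. Within genotypes, r of these pairs was 0.966, 0.615 and 0.441. The r of the 45 pairs among the 10 genes ran between -0.675 and 0.946 with a median of -0.110. The lowest was that of *Gclm* with *Gpx3*, whose values were tied by the normalization. These values share arrays and were noticed after they were seen, so they are a description with no test.

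**Figure D3:**
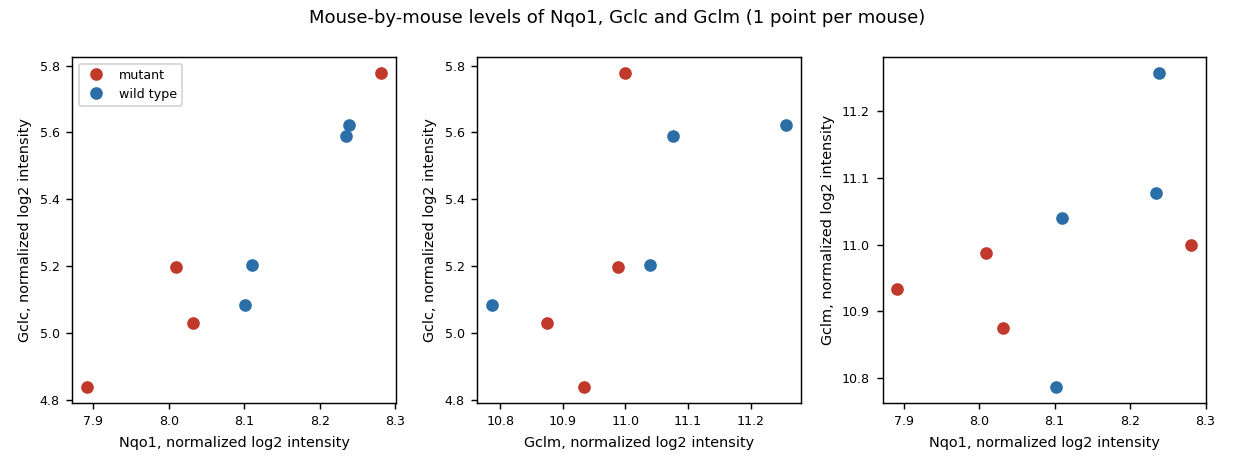
Normalized log2 intensity of *Nqo1*, *Gclc* and *Gclm* against each other, with 1 point per mouse, mutant and wild type by color. *Nqo1* and *Gclc* lie close to 1 line over all 8 mice (r 0.946), with both genotypes spread along it.

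*Txnrd1* encodes the cytosolic thioredoxin reductase, a selenoprotein that keeps thioredoxin reduced. It was dim, at 5.55, 5.13, 5.41 and 5.43 in mutant mice, against 5.21, 5.42, 5.33 and 5.06 in wild type mice. The genotypes overlapped, with a log2 fold change of 0.13 (SE 0.10, limma adjusted p = 0.426). *Srxn1* encodes sulfiredoxin, which repairs overoxidized peroxiredoxins. Its brightest probe, ILMN_2677772, gave 9.48, 9.57, 9.43 and 9.48 in mutant mice, against 9.58, 9.43, 9.51 and 9.37 in wild type mice. The values of both genotypes were interleaved (log2 fold change 0.02, SE 0.07, limma adjusted p = 0.878), and the other 2 probes gave 0.10 and 0.05 (adjusted p = 0.478 and 0.642 by limma).

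*Prdx1* encodes a cytosolic peroxiredoxin that reduces hydrogen peroxide. Probe ILMN_1223738 read 13.53, 13.66, 13.53 and 13.47 in mutant mice, against 13.43, 13.60, 13.50 and 13.46 in wild type mice. The mutant mice overlapped the wild type mice (log2 fold change 0.05, SE 0.07, limma adjusted p = 0.601). A second probe, ILMN_2989706, was above background in 4 mutant and 3 wild type mice and gave the largest difference of the 16 probes, 0.25 (SE 0.13, limma adjusted p = 0.214). The genotype differences of both *Prdx1* probes were within the spread of each other (two-sided exact permutation test, p = 0.286).

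*Sod1* encodes the copper-zinc superoxide dismutase of the cytosol. It read 13.31, 13.20, 13.17 and 13.31 in mutant mice, against 13.27, 13.26, 13.23 and 13.36 in wild type mice. The genotypes overlapped, and the log2 fold change was -0.03 (SE 0.06, limma adjusted p = 0.782), an interval of 0.892- to 1.08-fold.

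*Gpx3*, the plasma glutathione peroxidase, was the brightest probe of the array by its mean over mice, and its value depended on the scale. Quantile normalization gives the brightest probe of each array the same value, so *Gpx3* read 14.41 in all 4 mutant mice, against 14.37, 14.41, 14.41 and 14.37 in wild type mice. It shared the top ranks with *Gpx1*, the intracellular glutathione peroxidase, and the log2 fold changes of 0.02 for *Gpx3* and -0.02 for *Gpx1* reflect only which of them ranked first (limma adjusted p = 0.828 for each). As scanned, *Gpx3* had intensities of 21700, 21483, 21913 and 21800 in mutant mice, against 21790, 23153, 21062 and 21098 in wild type mice. Wild type mice held both extremes, and the ratio of means was 0.998, with no correction for the brightness of each array.

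In the authors' normalized values, *Gpx3* read 22081, 22687, 21723 and 21864 in mutant mice, against 19594, 21085, 19772 and 21431 in wild type mice. On this scale all mutant mice lay above all wild type mice, with a ratio of 1.08. The ratio of *Gpx1* was 1.08 as well on that scale and 0.996 as scanned. The lowest adjusted p of *Gpx3* over the alternatives was 0.181 (limma). A compression of such bright signals was not tested.

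**Figure D4:**
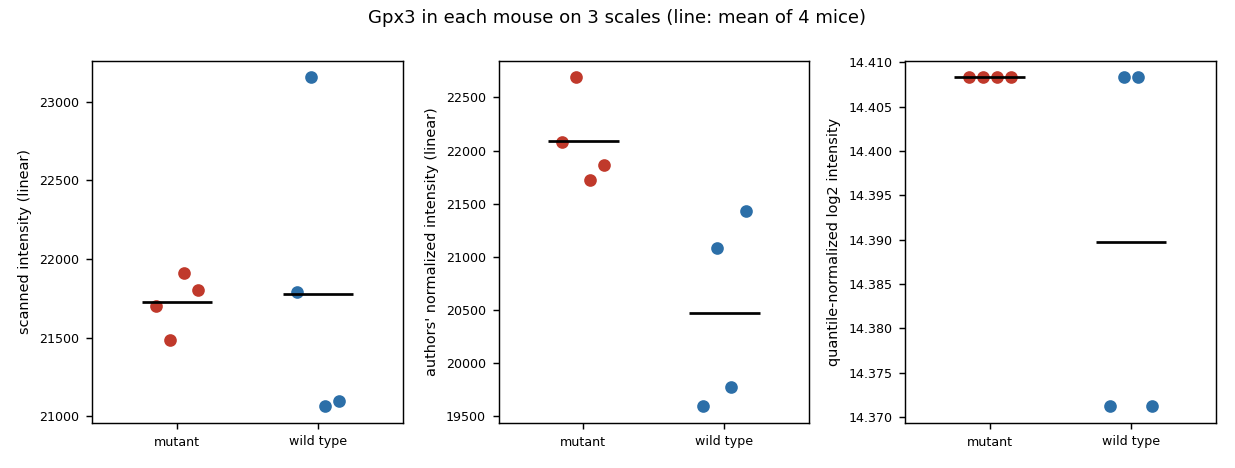
*Gpx3* in each mouse as scanned, after the authors' normalization (both linear intensity) and after quantile normalization (log2), with mutant mice left, wild type mice right and lines at the means. The y axes do not start at 0. The genotypes are separate only in the authors' values, where the ratio of means is 1.08.

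Other genes of the same pathways were counted by their brightest probe, beside 8.43% of all genes called higher and 7.88% called lower in mutants. None of the 7 regulators tested passed. Among them, *Sqstm1*, an adaptor that binds Keap1, gave 0.08 (limma adjusted p = 0.353). *Rbx1*, a subunit of the ligase that marks Nrf2, gave 0.11 (limma adjusted p = 0.173). This *Rbx1* probe was called without background correction (limma adjusted p = 0.0482), while a dimmer one, ILMN_1230583, gave -0.03 (adjusted p = 0.794). Of 17 other Nrf2 target enzymes and transporters tested, 3 rose and 0 fell, with a median log2 fold change of 0.12. The largest rise was that of *Hmox1*, which encodes heme oxygenase and is also induced by routes other than Nrf2. It read 7.11, 7.08, 7.16 and 7.10 in mutant mice, against 6.33, 6.44, 6.48 and 6.15 in wild type mice, a log2 fold change of 0.76 (SE 0.08, limma adjusted p = 0.00223). All mutant mice lay well above all wild type mice, and *Hmox1* was among the genes the study itself picked from these arrays, so this count is not independent evidence of a direction.

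The other 2 that rose were glutathione transferases of large gene families, whose probes may also bind related transcripts. *Gsta3* gave 0.31 (SE 0.09, limma adjusted p = 0.0489) and *Gstm1* 0.25 (SE 0.07, limma adjusted p = 0.0441). These calls were lost in 12 and 11 of 16 other settings, median scaling among them. A dimmer probe of each gave 0.36 for *Gsta3* (limma adjusted p = 0.0265) and 0.13 for *Gstm1* (adjusted p = 0.355). *Fth1*, the ferritin heavy chain, gave 0.05 (limma adjusted p = 0.508). Of the urothelial markers, 4 of 5 tested were higher, and the summed intensity of their probes was 262 to 375 in mutants and 165 to 209 in wild types. The red blood cell markers, 0 of 2 called, summed to 2691 to 7457 in mutants and 2619 to 7878 in wild types. Neither list's part in the rise of *Hmox1*, *Gsta3* and *Gstm1* was tested.

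Of the genes for NADPH supply, glutathione and thioredoxin, 2 of 5, 2 of 13 and 2 of 12 passed, 1 in each direction in each list, beside 16.3% of all genes. After median scaling, 0 of them were called higher in each list. Without background correction, 3, 1 and 2 were called higher and 1, 2 and 2 lower. The median log2 fold changes were 0.19, -0.01 and 0.06. Of the 8 NADPH supply genes listed, 6 had a probe. *Tkt*, the transketolase of the pentose phosphate pathway, rose by 0.29 (SE 0.06, limma adjusted p = 0.0183) and *Idh1*, the cytosolic isocitrate dehydrogenase, fell by 0.25 (SE 0.07, adjusted p = 0.0355), of 5 genes tested. *Taldo1*, the transaldolase, gave 0.19 (limma adjusted p = 0.0556). *Me1*, named after its values were seen, gave 0.27 (limma adjusted p = 0.0520), and 0.15 on a dimmer probe (adjusted p = 0.147). The call of *Idh1* was lost in 8 of 16 other settings and that of *Tkt* after median scaling. Of 13 glutathione genes, *Oplah*, the oxoprolinase that returns glutamate, rose by 0.35 (SE 0.07, limma adjusted p = 0.00962) and *Gpx6*, a glutathione peroxidase, fell by 0.58 (SE 0.08, adjusted p = 0.00385). The call of *Oplah* was lost after median scaling. Probes disagreed for *Gss*, the glutathione synthetase, whose brightest probe gave -0.03 and whose dimmest (ILMN_1227649) gave -0.41 (limma adjusted p = 0.0181, and 0.0503 without wild type replicate 1). For *Gpx8*, a glutathione peroxidase of the endoplasmic reticulum, also named after its values were seen, the brightest probe gave -0.27 (limma adjusted p = 0.0813), and the other 2 probes passed at -0.31 (adjusted p = 0.0464) and -0.27 (adjusted p = 0.0497). Each of these 2 calls was lost in 10 of 16 other settings.

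Of 12 thioredoxin and peroxiredoxin genes, both genes that passed encode mitochondrial proteins. *Prdx3*, the mitochondrial peroxiredoxin, read 10.37, 10.36, 10.34 and 10.23 in mutant mice, against 10.81, 10.62, 10.53 and 10.71 in wild type mice. All mutant mice lay below all wild type mice, and the log2 fold change was -0.35 (SE 0.07, limma adjusted p = 0.0153). *Txnrd2*, the mitochondrial thioredoxin reductase, gave 0.25 (SE 0.07, limma adjusted p = 0.0284), a call lost in 8 of 16 other settings. A dimmer *Txnrd2* probe, ILMN_1231952, was also called, at 0.40 (limma adjusted p = 0.00589). *Prdx2* and *Txnip*, an inhibitor of thioredoxin, were the brightest that did not pass (0.06 and -0.04, limma adjusted p = 0.481 and 0.840).

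Of the other 5 superoxide dismutase and catalase genes, 1 rose and 1 fell. *Cat*, the peroxisomal catalase, read 11.83, 11.72, 11.89 and 11.85 in mutant mice, against 12.22, 12.14, 12.14 and 12.16 in wild type mice. All mutant mice lay below all wild type mice, at a log2 fold change of -0.34 (SE 0.06, limma adjusted p = 0.00785). *Atox1*, a copper chaperone, gave 0.31 (SE 0.07, limma adjusted p = 0.0179), while *Ccs*, the copper chaperone of *Sod1*, gave 0.16 (adjusted p = 0.0874) and *Sod2* 0.00 (adjusted p = 0.966). None of 5 NADPH oxidase genes passed, with 0.14 for *Cyba* (limma adjusted p = 0.0907) and -0.17 for *Nox4* (adjusted p = 0.329).

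Genes of selenoproteins, to which the products of *Gpx3* and *Txnrd1* belong, and of selenium handling held the most calls, 4 lower and 2 higher of 12 tested, with a median log2 fold change of -0.13. *Selenop*, the plasma selenium carrier, read 12.67, 12.89, 12.59 and 12.81 in mutant mice, against 13.15, 13.23, 13.28 and 13.05 in wild type mice, a log2 fold change of -0.44 (SE 0.08, limma adjusted p = 0.0107). All mutant mice lay below all wild type mice on this probe, ILMN_3141048. A dimmer probe of *Selenop*, ILMN_1247553, gave -0.21 and was not called (limma adjusted p = 0.288). *Selenof*, a protein of the endoplasmic reticulum, gave -0.38 (SE 0.08, limma adjusted p = 0.0133), *Dio1*, the thyroid hormone deiodinase, -0.34 (adjusted p = 0.0467) and *Sephs2*, the selenophosphate synthetase, -0.29 (adjusted p = 0.0469). *Selenom* was 0.44 higher (SE 0.12, limma adjusted p = 0.0364), and *Selenow*, named after its value was seen, 0.20 (adjusted p = 0.0495). The calls of *Selenom*, *Sephs2* and *Selenow* were lost in 8, 9 and 12 of 16 other settings and that of *Dio1* in 12 of 15, whereas those of *Selenop*, *Selenof*, *Cat*, *Prdx3*, *Gpx6*, *Atox1* and *Hmox1* held in all 16.

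The segment markers differed between genotypes beside these falls. For the thick ascending limb 4 of 5 markers were lower, and their summed intensity was 8239 to 10773 in mutants and 13603 to 16155 in wild types. The proximal tubule markers, 1 higher and 1 lower of 7 tested, summed to 45889 to 48143 in mutants and 43973 to 48770 in wild types, so these genotypes overlapped. The part of the segments in the values of *Cat*, *Prdx3* and the selenoprotein genes was not tested.

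**Figure D5:**
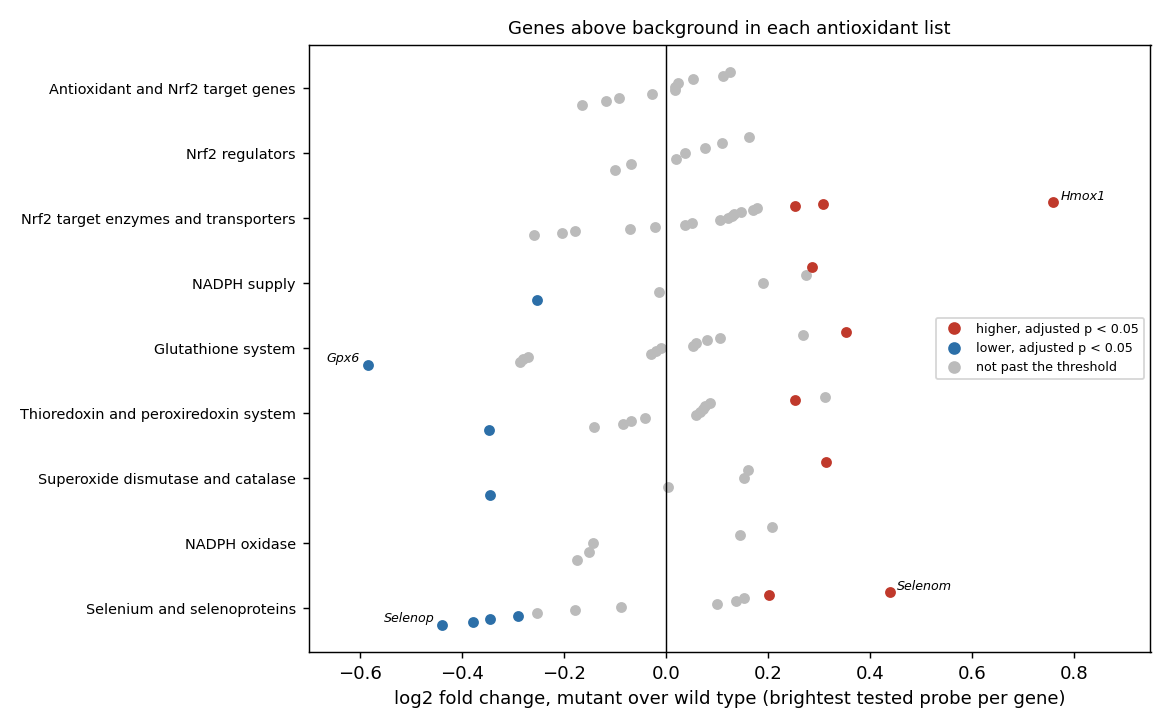
Log2 fold change, mutant over wild type (x axis), of each gene above background in the 10 antioxidant and Nrf2 target genes (top row) and 8 lists of related genes, by brightest probe. Color marks genes past an adjusted p of 0.05. None of the top row is colored, and *Hmox1* at 0.76 lies farthest from 0.

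All 7 proximal tubule markers with a probe were above background, as the kidney label has it. Median scanned intensities were 130, 127, 135 and 132 in mutants, against 138, 139, 133 and 136 in wild types. They ran somewhat lower in mutants, with some overlap. Probes detected numbered 12602 to 13060 in mutants and 12685 to 13127 in wild types. The split of calls depended on scaling: 46.8% of all calls were higher in mutants after quantile normalization and 13.2% after scaling to a common median.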

How the data were processed

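Kidney RNA of 4 homozygous mutant and 4 wild type mice was compared by the genotype in the labels. One deposited table holds the scanned intensity of every probe without any correction, together with a detection p-value from GenomeStudio 2011.1. The other deposited table holds the authors' normalized intensity (background-subtracted, cubic spline), which is linear. Scanned intensities were background-corrected from the detection p-values (normexp, offset 16), quantile-normalized and log2-transformed (limma 3.58.1, R 4.3.3), so log2 values were computed from the deposited intensities. A probe was tested if it was detected (p below 0.05) in 4 or more of the 8 mice. The test used lmFit and eBayes on genotype, and p-values were adjusted by Benjamini-Hochberg over 12914 probes. A gene was represented by its brightest probe. Probe genes came from the platform annotation (23962 of 23978 probes with a gene matched a current gene table). SAM used the authors' values with a floor of 16 and all 70 arrangements.

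The scripts were tested on simulated data with known changes. The members and the gene lists were chosen with earlier results of these data known. Named genes were the 10 members, called genes of each list (at most 5, by largest change), the 2 brightest of each list and the 3 most like *Nfe2l2*. *Me1*, *Gss*, *Gpx8* and *Selenow* were named after their values were seen. The labels do not say whether the mice shared litters, and the number of arrays limits the precision. The labels give no batch. Marker lists not described in the report gave these calls: distal convoluted tubule 2 higher of 3 tested, collecting duct 1 higher of 4, podocyte 1 lower of 2, endothelium 1 lower of 5, and none for fibroblast (3 tested), leukocyte (3) and adrenal cortex (1). No adipocyte marker was above background on enough arrays to be tested. *Adipoq* was detected in 2 mutant and 1 wild type mice. It read 4.56, 4.59, 6.46 and 5.19 in mutant mice, against 4.70, 4.53, 4.61 and 5.21 in wild type mice. The part of fat tissue in the values of mutant replicate 3 was not tested.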

Additional observations from a re-analysis of the deposited data

Results flagged for a closer look

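One value among the probes of the 10 genes stood far from the others of its genotype. *Keap1* probe ILMN_2621346 read 6.80 in wild type replicate 1, while the other 3 wild type mice lay close together. The gap relative to the range exceeded Dixon's 95% critical value of 0.829 for 4 samples. Of 31 groups with a range that were examined this way, 1 was marked, and chance marks about 1 in 20.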

How the results depend on the processing

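Of the 16 probes of the 10 genes, 0 were called after median scaling, on the authors' values, without the filter on dim probes, under SAM, with the replicate block, and without any 1 mouse. *Keap1* ILMN_2993267 was the 1 probe called, and higher, without background correction, with an offset of 50, with a detection p under 0.01 on all arrays and with an intensity trend. The mean of a gene's probes in place of the brightest called 0 of the 10 genes. Over all probes, 2167 were called, 1015 higher and 1152 lower. Median scaling called 241 higher and 1588 lower. SAM called 249, 76 higher and 173 lower. The replicate block called 1361, 560 of them higher, but the labels do not say what the replicate numbers mark. Same-numbered mice had deviations that correlated at 0.13, -0.07, -0.10 and -0.02. Those of differently numbered mice ran between -0.19 and 0.14, so these values cannot decide whether mice were paired. No result of the 10 genes changed its call under the block. Leaving out 1 mouse left between 1154 calls (without wild type replicate 1) and 1705 (without wild type replicate 4), with 504 to 758 higher and 650 to 947 lower. It left 1320 without mutant replicate 2 and 1337 without wild type replicate 2.

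Values that changed sign were small. Median scaling gave -0.0545 for *Nfe2l2*, -0.0226 and -0.0221 for *Keap1* ILMN_2707771 and ILMN_2621346, -0.0349 and -0.0323 for *Srxn1* ILMN_2677772 and ILMN_1229994, 0.0738 for *Gpx1* and -0.0162 for *Sod2*. The authors' values gave 0.107 for *Gpx1* and 0.00878 for *Glrx*. *Gclc* minus *Gclm* turned to 0.0487 without background correction and to 0.00805 with an offset of 50. Without 1 mouse in turn, *Nfe2l2* lay between -0.0216 and 0.0940, *Srxn1* ILMN_2677772 between -0.0171 and 0.0519, *Sod1* between -0.0471 and 0.000124, *Glrx* between -0.0306 and 0.00639, *Txnip* between -0.154 and 0.0176 and *Sod2* between -0.0187 and 0.0369. *Gclc* minus *Gclm* lay between -0.243 and 0.0479. The difference from the brightest probe lay between -0.0942 and 0.0337 for *Keap1* ILMN_2707771, -0.0872 and 0.00135 for *Keap1* ILMN_2621346, and -0.0125 and 0.0898 for *Srxn1* ILMN_1229994. The cause of these turns was not tested. Only 4 mice per genotype and, for *Gclc*, *Txnrd1* and the dimmer *Prdx1* probe, signals near background limit what could be detected.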
